A study of Mus musculus with 18 samples.

Results

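The 34 genes described here encode proteins that carry a cell through mitosis, from the cyclins and kinases that start it to the motors and scaffold proteins that separate the daughter cells. They were chosen by symbol from the 22238 symbols of the deposited count table, and 34 of 34 passed the filter on low counts that left 15494 genes for testing. Total RNA of whole uterus homogenate was sequenced from adult CD-1 mice, an outbred stock, whose ovaries had been removed in every group. The PBS arm received phosphate-buffered saline, the vehicle, and the DOX arm received doxorubicin, an anthracycline that poisons topoisomerase II. Within each arm the hormone label was OIL, E2 (estradiol, an estrogen) or P4 (the usual short form of progesterone), which gives 6 groups of 3 libraries: PBS OIL, PBS E2, PBS P4, DOX OIL, DOX E2 and DOX P4. The series names the effect of DOX on the uterine response to estrogen as its question. Doses, times, the age beyond adult and whether each library is 1 animal are not stated in the labels, and the spread that the p-values measure is that between these libraries, which may be technical.

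Mitosis is started by Cdk1 bound to A-type and B-type cyclins, and it is held at metaphase by the spindle checkpoint until the kinetochores of every chromosome are attached to spindle microtubules. Cdc20 then activates the anaphase-promoting complex (APC/C), a ubiquitin ligase that marks cyclin B and securin for destruction, and the cell divides. Most of these genes are transcribed in late G2, when the MuvB core with B-Myb and the factor FoxM1 occupies their promoters, and they are silenced in resting cells by the DREAM complex on the same short element, the cell cycle genes homology region (CHR). In the uterus of ovariectomized rodents most cells rest, estrogen is known to drive a wave of division in the luminal epithelium, and progesterone is known to move division towards the stroma. A homogenate mixes these layers, and fewer dividing cells cannot be told apart from less RNA per dividing cell.

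Promoters were examined because most mitotic genes are known to carry such an element. RefSeq windows of 300 bases on GRCm38.p6, from 250 bases before to 50 after the annotated start, were matched by symbol for 27 of the 34 genes, and Ccna2, Cdc25c, Aurkb, Incenp, Tpx2, Kif20a and Foxm1 have no entry in the table. A CHR, searched as TTTGAA or TTCGAA on both strands, was found for 21 of 27 genes (77.8%) and for 21.7% of 27025 genes with a window. A CCAAT box, searched as CCAAT on both strands, was found for 20 of 27 (74.1%, against 41.1% of all), and both motifs for 18 of 27 (66.7%, against 8.61%). The E2F motif, searched as TTCCCGC, as the variant TTGGCGC and as the variant TTCGCGC on both strands, was found for 5 of 27 (18.5%, against 9.2%). In 21 of the 23 member windows with a CHR the copy nearest to the start began within 50 bases of it, and the median distance was 19 bases. That copy lay before the start in some members and after it in others, among them Ccnb2, Plk1, Aurka, Cenpa and Cenpf. The 200 bases before the start are shown for 5 members from 5 roles. They were chosen for a CHR in that stretch, by the highest mean level in the role, and do not stand for the layout of all members. They are Cdk1 (chr10:69352913-69353112, minus strand), Cdc20 (chr4:118437344-118437543, minus strand), Kif11 (chr19:37376182-37376381, plus strand), Prc1 (chr7:80294276-80294475, plus strand) and Mki67 (chr7:135716380-135716579, minus strand). Each reads 5′ to 3′ towards the start of its gene, and capitals mark CHR and CCAAT matches on either strand. RefSeq and GENCODE place some starts differently, so that the last bases shown for Cdk1, Cdc20 and Prc1 lie inside the GENCODE gene.
Cdk1: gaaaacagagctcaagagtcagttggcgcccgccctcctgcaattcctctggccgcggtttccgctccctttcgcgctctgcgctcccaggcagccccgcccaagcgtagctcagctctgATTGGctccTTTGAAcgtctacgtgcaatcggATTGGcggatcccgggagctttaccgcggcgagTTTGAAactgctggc
Cdc20: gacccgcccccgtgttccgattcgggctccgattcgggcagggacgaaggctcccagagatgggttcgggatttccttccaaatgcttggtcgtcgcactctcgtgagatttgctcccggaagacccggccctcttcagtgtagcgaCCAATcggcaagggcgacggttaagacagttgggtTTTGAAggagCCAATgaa
Kif11: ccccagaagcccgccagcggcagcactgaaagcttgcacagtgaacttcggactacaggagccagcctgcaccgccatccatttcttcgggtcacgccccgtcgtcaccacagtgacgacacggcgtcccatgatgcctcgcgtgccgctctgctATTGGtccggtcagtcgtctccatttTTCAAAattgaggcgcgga
Prc1: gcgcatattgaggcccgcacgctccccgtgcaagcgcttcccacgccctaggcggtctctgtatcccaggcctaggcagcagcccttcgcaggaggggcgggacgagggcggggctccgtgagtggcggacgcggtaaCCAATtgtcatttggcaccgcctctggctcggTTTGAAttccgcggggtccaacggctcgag
Mki67: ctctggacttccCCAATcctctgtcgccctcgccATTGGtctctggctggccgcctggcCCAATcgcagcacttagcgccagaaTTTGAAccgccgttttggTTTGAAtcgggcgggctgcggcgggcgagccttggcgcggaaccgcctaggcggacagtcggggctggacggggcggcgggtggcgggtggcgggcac
In the Cdk1, Cdc20, Kif11 and Prc1 promoters a CCAAT box lies upstream of a CHR near the end of the shown stretch, and in the Mki67 promoter both kinds of match lie farther upstream. No CHR was found in the windows of Ccnb1, Melk, Nuf2, Cenpe, Birc5 and Nusap1, which says only that these letters are not in this window.

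Positions on GRCm38 follow GENCODE M21. Cdk1, the kinase that starts mitosis, lies on chromosome 10 at 69335146 to 69352938, Plk1 on chromosome 7 at 122159439 to 122169873, Cdc20 on chromosome 4 at 118432901 to 118437352 and Cenpf on chromosome 1 at 189640606 to 189688086. Incenp lies on chromosome 19 at 9872296 to 9899551, Tpx2 on chromosome 2 at 152847964 to 152895321, Prc1 on chromosome 7 at 80294450 to 80316259, Mki67 on chromosome 7 at 135689784 to 135716361, Foxm1 on chromosome 6 at 128362967 to 128376146, Cenpa on chromosome 5 at 30666777 to 30674830 and Melk on chromosome 4 at 44300876 to 44364675. In that annotation 34 of 34 are protein-coding genes, and the table gives 1 count per gene symbol and library. Exons of 8 members overlap exons of a gene on the opposite strand, among them Ccna2, Cdc25c, Plk1, Cdc20, Nusap1 and Prc1. Exons of 1 member, Foxm1, overlap those of Tex52 on the same strand. The counting tool and its strand setting are not given, so part of these counts may belong to the partner.

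The libraries held 18042357 to 39783785 counts, and the members were low in all of them. Their mean over the 18 libraries ran from 0.558 CPM (counts scaled to the size of the library) for Cdc25c to 21.02 for Mki67, and the lowest count of any member in any library was 3. Counts scaled per kilobase of exon, the scale on which genes can be compared, were highest for Incenp, the scaffold of the chromosomal passenger complex, at 3.79 CPM per kilobase. Cdc20, the APC/C activator, stood at 3.62, the proliferation marker Mki67 at 2.09, cyclin B2 (Ccnb2) at 1.9996, Plk1 at 1.798 and Foxm1 at 1.61. Lowest was Cdc25c, the phosphatase that activates Cdk1, at 0.113. Defining markers of epithelium, stroma, smooth muscle and endothelium were detected in every group, and none of the marker lists had a gene at 0 in all libraries of a group. Oviduct markers summed to 26.0 to 43.04 CPM in PBS OIL and to 8.92 to 9.77 in DOX E2, and adipocyte markers ranged from 0.309 to 1865 CPM over the 18 libraries. No pair of libraries of a group was a copy of another.

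Within a group the 34 genes were high or low together. This was known when the set was chosen, so the values here and in the next paragraph describe the trait and do not test it. Their CPM summed to 239, 161 and 164 in PBS OIL replicates 1, 2 and 3, to 207, 185 and 112 in DOX OIL, and to 104, 161 and 98.7 in PBS E2. The sums were 209, 95.04 and 142 in DOX E2, 155, 198 and 175 in PBS P4 and 172, 232 and 184 in DOX P4. The highest library held 1.28 (PBS P4) to 2.20 (DOX E2) times the sum of the lowest in its group. PBS OIL replicate 1 was the highest of its group for 33 of 34 members, where 38.7% of all tested genes were highest in it. DOX E2 replicate 1 was the highest of its group for 34 of 34, against 40.4% of all genes, and PBS E2 replicate 2 for 30, against 34.7%. At the other end, DOX OIL replicate 3 was the lowest of its group for 34 of 34 members (32.8% of all genes) and DOX E2 replicate 2 for 33 (38.1%). In the P4 groups replicate 2 led in both arms, for 28 members under PBS (31.7% of all genes) and 31 under DOX (33.4%). The comparisons below include libraries that lead or trail their group in this way. How much of the error these libraries carry was not measured.

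**Figure D1:**
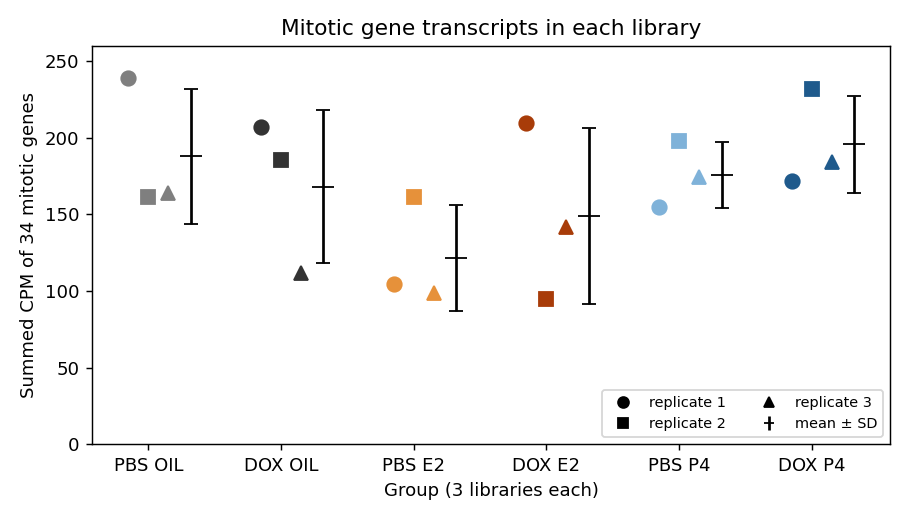
Summed CPM of the 34 mitotic genes (y axis, from 0) in each of the 18 libraries, by group (x axis); symbols are replicates and the bar beside them is the mean ± SD of 3 libraries. PBS OIL replicate 1 (239) and DOX E2 replicate 1 (209) stand above their groups, DOX OIL replicate 3 (112) and DOX E2 replicate 2 (95.0) below, and the spread within a group is as wide as most gaps between groups.

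The spread was measured as the SD of log2 CPM within groups. Its median over the members was 0.47, against 0.19 for all tested genes and 0.32 for the 5864 genes in the same range of mean level. It was smallest for Incenp (0.20) and Plk1 (0.24) and largest for Hmmr (0.71), a spindle assembly factor, the checkpoint kinase Bub1 (0.68) and the kinetochore protein Cenpf (0.68). Over the 561 pairs of members, deviations from the group means correlated with a median r of 0.80 (0.17 to 0.98, 18 libraries that share depth and tissue mix), given as a description. The libraries that led for the members also led for 71 other mitosis genes, of which 52 were highest of their group in PBS OIL replicate 1 and 56 in DOX E2 replicate 1. For 30 S phase genes the numbers were 25 and 28. For 23 DREAM, E2F and pocket protein genes, which code for the regulators, they were 7 and 14. Leukocyte markers summed to 77.0 CPM in PBS OIL replicate 1, the lowest of that group, and their sum reached 326 in replicate 2. Epithelium markers summed to 964, 605 and 771 CPM in PBS OIL replicates 1, 2 and 3. In the same order they summed to 875, 801 and 606 in PBS E2 and 1339, 1276 and 941 in DOX E2. Stroma markers in PBS OIL summed to 3429.9, 5358 and 5317 CPM. Smooth muscle markers summed to 5966, 9635 and 12953 CPM in DOX OIL and to 14357, 25024 and 13839 in DOX P4. Adipocyte markers in PBS E2 summed to 1865, 89.3 and 323 CPM in replicates 1, 2 and 3, where the members summed to 104, 161 and 98.7. The part of these lists in the members' spread was not tested.

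**Figure D2:**
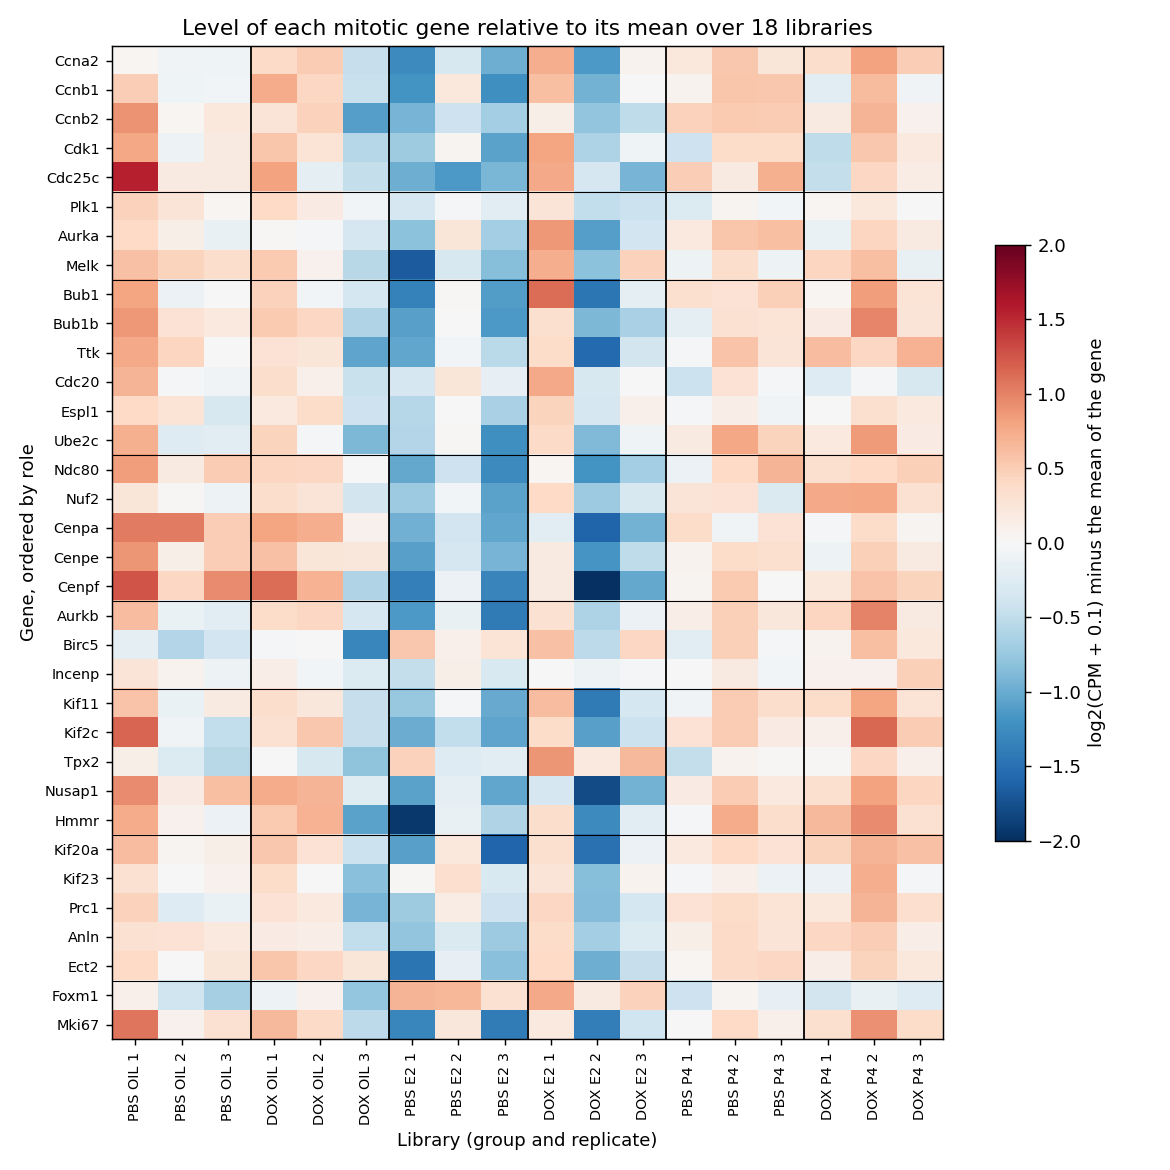
Level of each of the 34 genes (rows, by role) in each library (columns, by group and replicate) as log2 CPM minus the mean of that gene over 18 libraries; red is above and blue below the mean. Whole columns shift together: PBS OIL replicate 1 was highest of its group for 33 of 34 genes and DOX OIL replicate 3 lowest for 34 of 34, while the Foxm1 row is red in the E2 columns where most rows are blue.

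E2 under PBS went with lower levels of many of the genes. Against PBS OIL, 14 of 34 fell and 1 rose in the quasi-likelihood test of edgeR at a Benjamini-Hochberg adjusted p under 0.05, the threshold of every call below. Over all tested genes 61.4% were called, 31.9% lower and 29.6% higher, beside which the members' shares were 41.2% lower and 2.94% higher. The median log2 fold change was -0.91 for the members and -0.09 for all tested genes, and 31 of 34 lay below 0, against 54.3% of all. Groups did not overlap for 16 members that were lower and 2 that were higher (32.5% and 29.9% of all genes). The number that fell moved with the scaling and with single libraries. It was 23 with library totals in place of TMM scaling, 20 with limma voom, 10 in the fit of only the groups compared, 8 without PBS OIL replicate 1, 7 without PBS E2 replicate 1, 9 without PBS E2 replicate 3 and 25 without PBS E2 replicate 2. Of the 15 calls 7 (Cenpa, Cenpe, Cenpf, Ndc80, Nusap1, Anln and Foxm1) held in every alternative run.

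Of the kinetochore and centromere genes 4 of 5 fell, with a role median of -1.48 on the log2 scale. Cenpa, the histone H3 variant that marks centromeres, was at 6.95, 6.96 and 4.75 CPM in PBS OIL and at 1.67, 2.55 and 1.57 in PBS E2, and it fell by 1.70 ± 0.32 (SE) on the log2 scale (adjusted p = 0.000298). Every PBS E2 library lay below every PBS OIL library. Cenpf, a large kinetochore protein of late G2 and mitosis, was at 10.1, 5.62 and 8.11 CPM in PBS OIL and 1.56, 3.85 and 1.62 in PBS E2, again without overlap, and fell by 1.78 ± 0.51 (adjusted p = 0.00673). Ndc80, which binds microtubules at the outer kinetochore, was at 3.48, 2.18 and 2.75 CPM in PBS OIL and 0.891, 1.41 and 0.733 in PBS E2 and fell by 1.48 ± 0.34 (adjusted p = 0.00142). The kinetochore motor Cenpe averaged 5.099 ± 1.35 CPM (SD, n = 3) in PBS OIL and 2.04 ± 0.631 in PBS E2, and fell by 1.33 ± 0.32, with an adjusted p of 0.00198 in edgeR. Nuf2, the partner of Ndc80, gave -0.67 ± 0.34, adjusted p = 0.104.

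Among the cyclins and regulators of Cdk1, 2 of 5 fell. Cdk1 itself was at 10.2, 5.57 and 6.804 CPM in PBS OIL and 3.59, 6.23 and 2.78 in PBS E2. These overlap, since PBS E2 replicate 2 lies above PBS OIL replicate 2, and the difference of -0.85 ± 0.42 had an adjusted p of 0.0909. Cdc25c was at 1.604, 0.557 and 0.559 CPM against 0.195, 0.163 and 0.2095 and fell by 2.23 ± 0.61 (adjusted p = 0.00478), from counts of 3 to 36. Ccnb2 fell by 1.14 ± 0.37 (adjusted p = 0.01405), a call lost without PBS OIL replicate 1 or PBS E2 replicate 1. Ccna2, cyclin A2, averaged 5.79 ± 0.278 CPM in PBS OIL and 3.39 ± 1.23 in PBS E2 and missed the threshold (-0.78 ± 0.38, adjusted p = 0.0814) although its groups did not overlap. Of the mitotic kinases, Melk fell by 1.43 ± 0.43 (adjusted p = 0.00901), from 3.03, 2.74 and 2.56 CPM in PBS OIL to 0.557, 1.57 and 1.05 in PBS E2, a call lost without PBS E2 replicate 1. Plk1, which acts at centrosomes, kinetochores and the midbody, was at 5.39, 4.69 and 4.01 CPM in PBS OIL and 3.06, 3.79 and 3.35 in PBS E2, apart by group but with -0.47 ± 0.22, adjusted p = 0.0704. Aurka, the centrosomal Aurora kinase, averaged 2.47 ± 0.493 CPM in PBS OIL and 1.75 ± 0.789 in PBS E2 (-0.52 ± 0.42, adjusted p = 0.296).

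Of the checkpoint and anaphase genes 1 of 6 was called. Bub1b, which holds Cdc20 inactive, fell by 1.177 ± 0.41 (adjusted p = 0.0219), a call lost without PBS OIL replicate 1, PBS E2 replicate 1 or PBS E2 replicate 3. Its call was also lost when PBS OIL replicate 1 and DOX OIL replicate 3 were both omitted. Cdc20 was at 10.6, 6.36 and 6.24 CPM in PBS OIL and 5.18, 7.804 and 5.87 in PBS E2, with overlapping groups and -0.31 ± 0.30, adjusted p = 0.391. Espl1, the separase that cuts cohesin, averaged 3.702 ± 0.925 CPM in PBS OIL and 2.53 ± 0.671 in PBS E2 (-0.55 ± 0.27, adjusted p = 0.0899). The remaining Bub1, Ttk and Ube2c had log2 differences of -1.07, -1.01 and -0.70 and were not called.

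Spindle and cytokinesis genes were split. Nusap1, which bundles spindle microtubules, was at 7.75, 4.46 and 6.105 CPM in PBS OIL and 1.84, 3.52 and 1.89 in PBS E2 and fell by 1.35 ± 0.37 (adjusted p = 0.004704). Kif2c, a microtubule-depolymerizing kinesin, fell by 1.32 ± 0.49 (adjusted p = 0.0281), but limma voom did not call it, and neither did the fit of only the groups compared or fits without PBS OIL replicate 1, PBS E2 replicate 1 or PBS E2 replicate 3. Nor was Kif2c called when PBS OIL replicate 1 and DOX OIL replicate 3 were both omitted. Kif11, the motor that pushes spindle poles apart, averaged 5.37 ± 1.35 CPM in PBS OIL and 3.096 ± 1.19 in PBS E2 (-0.80 ± 0.41, adjusted p = 0.101). Tpx2, which activates Aurora A on the spindle, was not called and lay above 0 on the log2 scale, at 8.199, 6.17 and 5.08 CPM in PBS OIL and 10.4, 6.23 and 6.39 in PBS E2 (0.25 ± 0.27, adjusted p = 0.434). In the cytokinesis role 2 of 5 fell. Anln, anillin of the contractile ring, was at 7.93, 7.84 and 7.36 CPM in PBS OIL and 3.67, 5.202 and 3.82 in PBS E2 without overlap and fell by 0.87 ± 0.24 (adjusted p = 0.00583). Ect2, the activator of RhoA at the cleavage furrow, fell by 0.99 ± 0.33 (adjusted p = 0.0167), a call lost without PBS OIL replicate 1, PBS E2 replicate 1 or PBS E2 replicate 3, and in the fit of only the groups compared. Omitting both PBS OIL replicate 1 and DOX OIL replicate 3 lost the Ect2 call as well. Prc1, which bundles the microtubules of the spindle midzone, was at 8.96, 5.43 and 5.92 CPM in PBS OIL and 3.92, 7.21 and 4.87 in PBS E2, with overlap (-0.35 ± 0.35, adjusted p = 0.392), and the midzone kinesin Kif23 was not called either, with a log2 difference of -0.10 ± 0.32. Nor were the spindle factor Hmmr (-1.12 ± 0.54), the midzone kinesin Kif20a (-0.94 ± 0.45) or cyclin B1, Ccnb1 (-0.77 ± 0.46).

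Mki67, the nuclear antigen used to stain dividing cells, was at 39.9, 19.96 and 23.4 CPM in PBS OIL. In PBS E2 it was at 7.599, 22.2 and 7.07, so that replicate 2 lay within the PBS OIL range. It fell by 1.19 ± 0.45 (adjusted p = 0.0322), a call lost without PBS OIL replicate 1, PBS E2 replicate 1 or PBS E2 replicate 3, and in the fit of only the groups compared. The fit that omitted both PBS OIL replicate 1 and DOX OIL replicate 3 lost it too. In the passenger complex, which corrects faulty attachments, the kinase Aurkb was at 3.74, 2.18 and 2.05 CPM in PBS OIL and 1.03, 2.17 and 0.838 in PBS E2. It fell by 1.0003 ± 0.38 (adjusted p = 0.0328), a call lost in the same 5 fits. The scaffold Incenp of this complex was at 19.5, 17.1 and 15.1 CPM in PBS OIL and 11.7, 17.6 and 13.2 in PBS E2 and was not called (-0.29 ± 0.16, adjusted p = 0.132). Birc5, survivin, the third subunit here, averaged 2.81 ± 0.397 CPM in PBS OIL and 4.59 ± 0.719 in PBS E2. Its groups were apart in the upward direction, but the difference of 0.71 ± 0.34 had an adjusted p of 0.0813. Foxm1, the factor that drives transcription of G2 and M genes, rose by 0.86 ± 0.23 (adjusted p = 0.00514), from 9.45, 6.68 and 5.55 CPM to 14.2, 14.04 and 10.9, with every PBS E2 library above every PBS OIL library.

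Under DOX, where 72.6% of all tested genes were called, 5 of 34 members fell and 2 rose with E2 against DOX OIL, shares of 14.7% and 5.88% beside 37.5% lower and 35.1% higher over all genes. The members' median log2 fold change was -0.26, against -0.08 for all genes. Groups did not overlap for 3 members that were lower and 2 that were higher (39.1% and 36.6% of all genes). Of the 5 kinetochore genes 4 fell, and the fifth gene that fell was Nusap1 of the spindle group. Cenpa was at 5.84, 5.59 and 3.58 CPM in DOX OIL and 2.89, 1.03 and 1.68 in DOX E2 and fell by 1.42 ± 0.32 (adjusted p = 0.000947), without overlap. Nusap1 was at 6.75, 6.47 and 3.37 CPM in DOX OIL and 3.15, 1.08 and 2.01 in DOX E2 and fell by 1.41 ± 0.37 (adjusted p = 0.00284), without overlap as well. Cenpf was at 9.199, 6.83 and 2.74 CPM in DOX OIL and 4.75, 0.9798 and 2.01 in DOX E2, which overlap, and fell by 1.29 ± 0.51 (adjusted p = 0.0318). Ndc80 was at 2.61, 2.57 and 1.89 CPM in DOX OIL and 1.96, 0.773 and 1.15 in DOX E2 and fell by 0.87 ± 0.34 (adjusted p = 0.0293). Cenpe averaged 4.53 ± 0.673 CPM in DOX OIL and 2.63 ± 1.25 in DOX E2 and fell by 0.78 ± 0.32 (adjusted p = 0.0351). Calls for Cenpf, Ndc80 and Cenpe were lost without DOX OIL replicate 1, DOX E2 replicate 2 or DOX E2 replicate 3, which left 2 members lower in each case, as did the fit of only the groups compared, and without DOX OIL replicate 2 Cenpf and Ndc80 were lost, which left 3. The 5 genes that fell here are 5 of the 14 that fell under PBS. The comparisons share no library, but they come from 1 fit with a shared estimate of the spread. The same overlap over all tested genes is not given here, so the 5 of 14 cannot be set against it.

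Tpx2 rose under DOX. It was at 7.46, 6.01 and 4.26 CPM in DOX OIL and 13.9, 8.61 and 11.8 in DOX E2, every E2 library above every OIL library, a log2 change of 0.95 ± 0.27 (adjusted p = 0.00468) that held in every alternative run. Foxm1 rose by 0.71 ± 0.23 (adjusted p = 0.0127), from 8.205, 9.35 and 5.11 CPM in DOX OIL to 15.03, 10.1 and 12.1 in DOX E2, also without overlap. That call was lost without DOX OIL replicate 3 or DOX E2 replicate 1, which left 1 member higher, and with library totals in place of TMM scaling. Mki67 was at 29.6, 24.7 and 13.1 CPM in DOX OIL and 21.5, 7.17 and 14.3 in DOX E2, with overlap and -0.65 ± 0.45, adjusted p = 0.203. The other leaders of their roles did not pass either. Cdk1 stood at 8.78, 7.199 and 4.0004 CPM in DOX OIL and 10.4, 3.87 and 5.63 in DOX E2. Plk1 stood at 5.18, 4.36 and 3.74 CPM in DOX OIL and 4.65, 2.73 and 2.87 in DOX E2. Cdc20 stood at 8.41, 7.02 and 4.79 CPM in DOX OIL and 11.1, 5.26 and 6.61 in DOX E2. In each of these genes DOX E2 replicate 1 was the highest E2 library and the groups overlapped. Prc1 stood at 7.998, 7.43 and 3.37 CPM in DOX OIL and 8.73, 3.51 and 5.09 in DOX E2. Incenp stood at 17.7, 15.7 and 13.4 CPM in DOX OIL and 16.4, 15.2 and 15.8 in DOX E2. The same held for these genes.

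**Figure D3:**
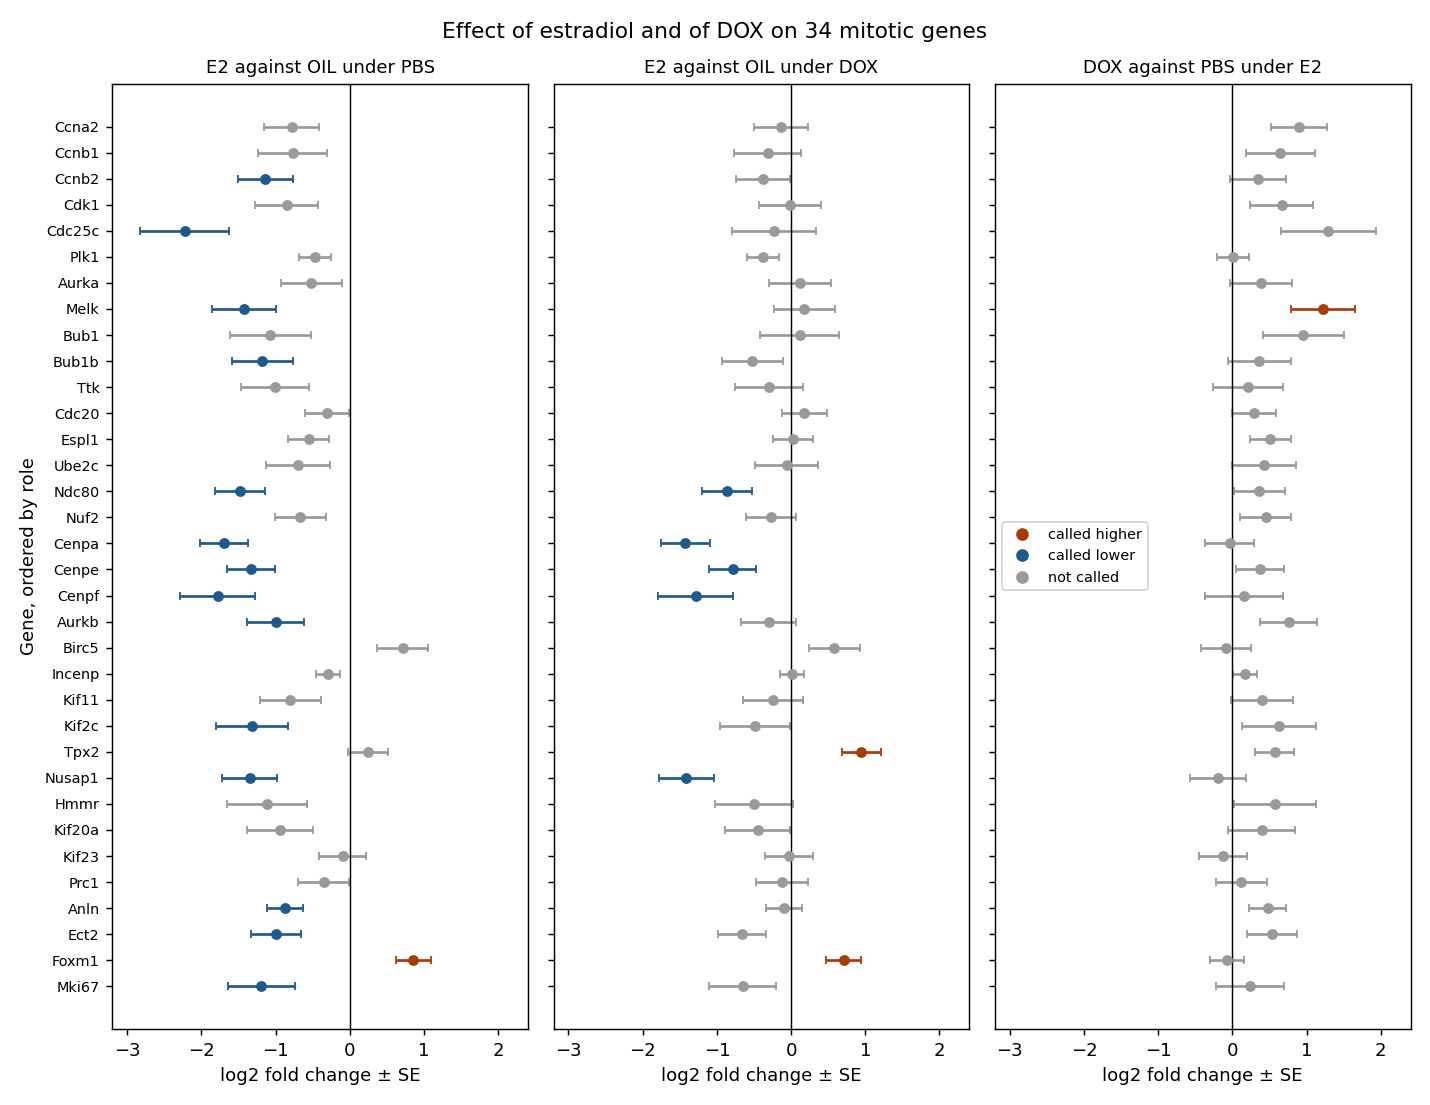
Log2 fold change ± SE (x axis) of each of the 34 genes (y axis, by role) for E2 against OIL under PBS (left), E2 against OIL under DOX (middle) and DOX against PBS under E2 (right), from the edgeR fit of 18 libraries; blue points were called lower, red higher and grey neither at an adjusted p under 0.05. The calls number 14 lower and 1 higher on the left, 5 lower and 2 higher in the middle and 1 higher on the right.

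The division within the set can be read without any scaling of libraries, as a ratio of 2 counts in the same library. These pairs were chosen after their values were seen and are a description. Foxm1 had 0.237, 0.335 and 0.237 counts per Mki67 count in PBS OIL, 0.277, 0.378 and 0.3896 in DOX OIL, 0.347, 0.367 and 0.388 in PBS P4 and 0.288, 0.223 and 0.301 in DOX P4. The ratios were 1.87, 0.633 and 1.55 in PBS E2 and 0.698, 1.403 and 0.848 in DOX E2. The 6 E2 libraries therefore lie above the 12 others with no overlap, in both arms. Tpx2 had 0.811, 1.099 and 0.626 counts per Cenpf count in PBS OIL, 0.811, 0.879 and 1.56 in DOX OIL, 1.23, 1.31 and 1.84 in PBS P4 and 1.58, 1.59 and 1.41 in DOX P4. With E2 they were 6.64, 1.62 and 3.94 under PBS and 2.92, 8.79 and 5.88 under DOX, and 1 E2 library, PBS E2 replicate 2, lies within the range of the others. A ratio within a library shows unequal change and not which of its genes changed.

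**Figure D4:**
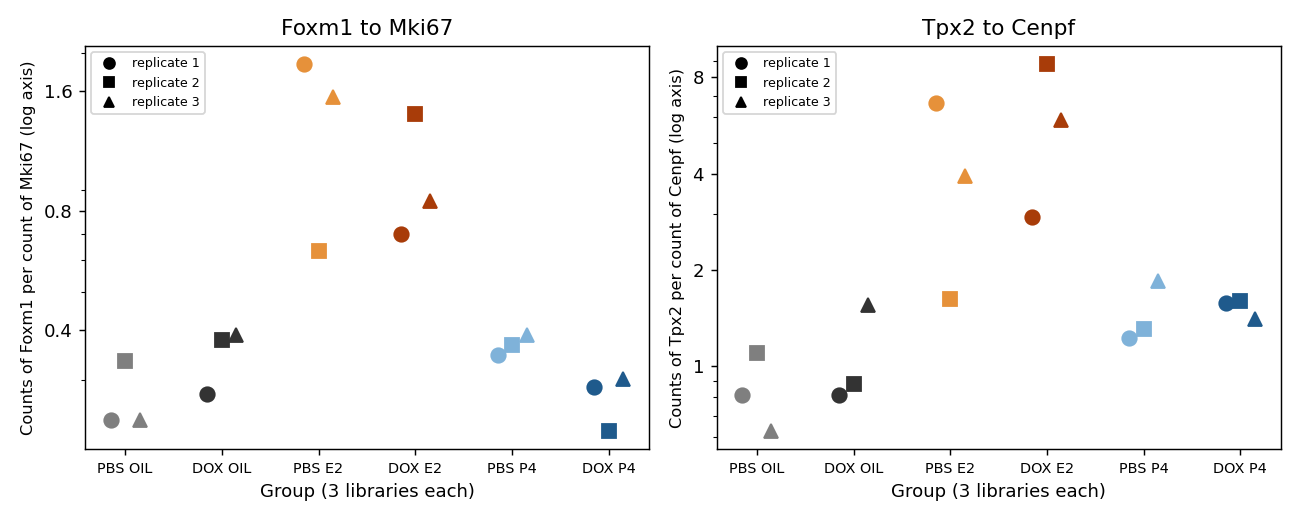
Ratio of counts (y axis, log scale) of Foxm1 to Mki67 (left) and Tpx2 to Cenpf (right) in each library, by group (x axis); symbols are replicates. Foxm1 to Mki67 is 0.633 to 1.87 in the 6 E2 libraries and 0.223 to 0.390 in the other 12, and Tpx2 to Cenpf overlaps in 1 library, PBS E2 replicate 2 at 1.62.

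Cell type markers were counted in the same E2 comparisons. Over all tested genes 31.9% were called lower and 29.6% higher under PBS, and 37.5% and 35.1% under DOX. Under PBS, 3 of 7 stroma markers, 2 of 8 epithelium markers, 2 of 5 endothelium markers and 3 of 3 oviduct markers were called lower, while 3 of 6 smooth muscle markers and 1 epithelium marker were called higher. Stroma markers summed to 3429.9 to 5358 CPM in PBS OIL, 3338 to 4887 in PBS E2, 4924 to 5521 in DOX OIL and 1944 to 2797 in DOX E2. Epithelium markers summed to 605 to 964, 606 to 875, 687 to 878 and 941 to 1339 CPM in the same order. Under DOX, 5 of 7 stroma, 1 of 8 epithelium, 2 of 5 endothelium, 1 of 6 smooth muscle and 3 of 3 oviduct markers were called lower, while 4 epithelium, 1 endothelium and 2 smooth muscle markers were called higher. Leukocyte markers summed to 77.04 to 326 CPM in PBS OIL, 113 to 135 in PBS E2, 91.9 to 221 in DOX OIL and 84.1 to 153 in DOX E2, and 2 of 5 T cell markers were lower with E2 under DOX. The part of these shifts in the members' values was not tested.

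DOX itself moved few of the genes past the threshold. Under E2, where 41% of all tested genes were called for DOX against PBS, 1 of 34 members rose and 0 fell, beside 20.4% higher and 20.6% lower over all genes. At an unadjusted p under 0.05 the edgeR count was 3 (49.3% of all genes), and DESeq2 called 2 and limma voom 4 at an adjusted p under 0.05. The differences lay above 0 for 29 of 34 members (52.1% of all genes), with a median of 0.39 on the log2 scale against 0.02, and for 0 members were the groups apart (26% of all genes higher, 23.3% lower). Melk, a kinase of late G2 and mitosis, rose. It was at 0.557, 1.57 and 1.05 CPM in PBS E2 and 3.36, 1.08 and 2.75 in DOX E2, a log2 change of 1.22 ± 0.43 (adjusted p = 0.0335), with DOX E2 replicate 2 inside the PBS E2 range. The call was lost without PBS E2 replicate 1 (adjusted p = 0.127), PBS E2 replicate 3 (0.0795), DOX E2 replicate 1 (0.1595) or DOX E2 replicate 3 (0.0872). It was also lost in the fit of only the groups compared (0.133) and with library totals in place of TMM scaling (0.0642), and in both of these 0 members were called. Over 14 alternatives that p ranged from 0.008398 to 0.1595, and the count of members called higher was 0 without PBS E2 replicate 3, DOX E2 replicate 1 or DOX E2 replicate 3 and 4 without PBS E2 replicate 2 or DOX E2 replicate 2.

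Other members with small p-values had overlapping groups and missed the threshold. Ccna2 was at 2.42, 4.77 and 2.99 CPM in PBS E2 and 9.91, 2.63 and 6.28 in DOX E2 (0.90 ± 0.38, adjusted p = 0.0664). Tpx2 was at 10.4, 6.23 and 6.39 CPM in PBS E2 and 13.9, 8.61 and 11.8 in DOX E2 (0.57 ± 0.26, adjusted p = 0.0963). Aurkb was at 1.03, 2.17 and 0.838 CPM in PBS E2 and 2.99, 1.55 and 2.22 in DOX E2 (0.76 ± 0.38, adjusted p = 0.127). In all 3 the DOX E2 replicate 1 value was the highest of the 6 and DOX E2 replicate 2 lay inside the PBS E2 range. Mki67 gave 0.24 ± 0.45, adjusted p = 0.709 and Foxm1 -0.08 ± 0.23, adjusted p = 0.817. Summed over the 34 genes, PBS E2 averaged 121 ± 34.5 CPM and DOX E2 149 ± 57.5. Beside this, 6 of 6 adipocyte markers were lower in DOX E2, with sums of 0.309 to 67.8 CPM against 89.3 to 1865, and 3 of 8 epithelium markers were higher. Over all tested genes 20.6% were called lower and 20.4% higher in this comparison. The part of these markers in the members' differences was not tested.

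Whether the E2 response differed between the arms was tested as the interaction of E2 and DOX, for which 22.9% of all tested genes were called. With edgeR 0 of 34 members were called and 3 had an unadjusted p under 0.05 (37.2% of all genes), while DESeq2 called 1 and limma voom 0. The 14 falls under PBS and 5 under DOX are therefore not shown to be different responses. The interaction term lay above 0, meaning a less negative or more positive E2 effect under DOX, for 31 of 34 members (51% of all genes), with a median of 0.57 against 0.01. It shares its libraries with the comparisons above. Melk had the smallest p, with E2 effects of -1.43 ± 0.43 under PBS and 0.18 ± 0.41 under DOX and an interaction of 1.61 ± 0.59 (adjusted p = 0.0614). For Cdc25c, at 0.912, 0.413 and 0.316 CPM in DOX OIL and 0.878, 0.361 and 0.205 in DOX E2, it was 1.996 ± 0.84 (adjusted p = 0.0949). For Anln, at 7.21, 7.02 and 4.53 CPM in DOX OIL and 8.31, 3.97 and 5.297 in DOX E2, it was 0.77 ± 0.34 (adjusted p = 0.113). Genes that fell in both arms included Cenpa and Nusap1, with terms of 0.27 ± 0.45 for the first and -0.06 ± 0.51 for the second, and Foxm1 had -0.14 ± 0.33.

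Without hormone no member differed between DOX and PBS past the threshold. For DOX against PBS under OIL 0 of 34 members were called with edgeR, DESeq2 or limma voom, 0 had an unadjusted p under 0.05 in any of these. Over all tested genes 0.0129% were called in edgeR and 8.09% had an unadjusted p under 0.05. The members' median was -0.17 on the log2 scale, with 27 of 34 below 0 (51% of all genes), and DOX OIL replicate 3 was the lowest of its group for each of them. Summed CPM was 188 ± 44.2 in PBS OIL and 168 ± 50.004 in DOX OIL. Melk was at 3.03, 2.74 and 2.56 CPM in PBS OIL and 2.901, 2.11 and 1.32 in DOX OIL. Ccna2 was at 6.105, 5.66 and 5.59 CPM in PBS OIL and 7.79, 8.53 and 4.32 in DOX OIL. Aurkb was at 3.74, 2.18 and 2.05 CPM in PBS OIL and 3.15, 3.26 and 1.89 in DOX OIL. Each of these pairs of groups overlapped. Groups were apart for 1 of 34 members, Anln, which was lower in DOX OIL (-0.30 ± 0.24, adjusted p = 0.803 in edgeR). Of all 15494 tested genes 726 were lower and 1022 higher without overlap. Under P4, with 0% of all genes called, the members' count was 0 in the same 3 tools, again with 0 at an unadjusted p under 0.05 (5.31% of all genes in edgeR), and their median was 0.18.

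With P4 no member passed the threshold in either arm, while many other genes did. Against OIL, 31.8% of all tested genes were called under PBS and 29.8% under DOX, and 0 of 34 members were called in either arm by edgeR, DESeq2 or limma voom. The numbers at an unadjusted p under 0.05 were 1, 1 and 1 for these tools under PBS and 0, 2 and 3 under DOX, beside 43.1% and 40.8% of all genes in edgeR. The members' medians were -0.03 under PBS and 0.31 under DOX. Mki67 was at 18.9, 24.9 and 20.3 CPM in PBS P4 and 23.5, 35.8 and 24.4 in DOX P4, and overlapped the OIL libraries of its arm in both. Foxm1, at 6.57, 9.14 and 7.896 CPM in PBS P4 and 6.78, 7.97 and 7.34 in DOX P4, overlapped OIL in both arms. Cenpa came closest to a call under PBS, at 4.36, 3.19 and 4.11 CPM (-0.68 ± 0.31, adjusted p = 0.107), and stood at 3.302, 4.36 and 3.47 in DOX P4. Tpx2 came closest under DOX, at 7.64, 9.9997 and 8.098 CPM against 7.46, 6.01 and 4.26 in DOX OIL (0.53 ± 0.27, adjusted p = 0.145). Cdk1 was at 4.45, 7.72 and 7.71 CPM in PBS P4 and 4.16, 8.76 and 6.83 in DOX P4. Cenpf was at 4.36, 6.04 and 4.16 CPM in PBS P4 and 4.84, 6.28 and 5.75 in DOX P4. Ccna2 was at 6.93, 8.67 and 7.05 CPM in PBS P4 and 7.64, 10.5 and 8.39 in DOX P4. Cdk1 and Cenpf overlapped the OIL libraries in both arms, and Ccna2 did so under DOX only. Under PBS groups did not overlap for 1 member that was higher (Ccna2) and 2 that were lower (Cenpa and Melk). Over all 15494 tested genes 3560 were higher and 3588 lower in this way. Under DOX 3 members were higher without overlap, among them Tpx2, and 0 lower, against 3776 and 3947 of all genes. Plk1 was at 3.19, 4.05 and 3.74 CPM in PBS P4 and 3.98, 4.51 and 3.87 in DOX P4. Cdc20 was at 4.86, 8.06 and 6.48 CPM in PBS P4 and 5.47, 6.35 and 5.21 in DOX P4. Incenp, the steadiest member, was at 16.1, 18.3 and 15.7 CPM in PBS P4 and 17.3, 17.2 and 22.6 in DOX P4. Prc1 was at 8.01, 8.45 and 7.896 CPM in PBS P4 and 7.51, 10.5 and 8.21 in DOX P4. Anln was at 6.93, 8.37 and 7.66 CPM in PBS P4 and 8.59, 9.06 and 7.05 in DOX P4. In most of these genes PBS P4 replicate 2 and DOX P4 replicate 2 were the highest of their groups. Melk was at 1.84, 2.54 and 1.84 CPM in PBS P4 and 2.71, 3.05 and 1.77 in DOX P4. Aurkb was at 2.65, 3.41 and 2.84 CPM in PBS P4 and 3.302, 4.89 and 2.75 in DOX P4. Cdc25c, with counts of 7 to 18, was at 0.7196, 0.561 and 0.851 CPM in PBS P4 and 0.317, 0.677 and 0.542 in DOX P4, and Tpx2 in PBS P4 at 5.35, 7.89 and 7.66. The members' log2 differences ran from -0.71 to 0.49 under PBS and from -0.43 to 0.66 under DOX, with an SE under PBS of 0.44 for Mki67 and 0.49 for Cenpf. The interaction of P4 and DOX had 0 of 34 members called in all 3 tools, 0 at an unadjusted p under 0.05 (3.39% of all genes in edgeR), and 0.00645% of all genes called.

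The genes around the set were read from 4 lists. With E2, 29.6% of all tested genes were called higher and 31.9% lower under PBS, and 35.1% and 37.5% under DOX. Of 71 other mitosis genes in the table, E2 gave 7 higher and 31 lower under PBS, with a median of -0.68, and 13 higher and 14 lower under DOX, with a median of -0.14. Securin (Pttg1), the separase inhibitor that APC/C destroys, fell by 1.55 ± 0.19 under PBS (adjusted p = 5.01e-06) and by 2.29 ± 0.20 under DOX. Of the checkpoint genes in this list, Bub3 rose by 1.20 ± 0.08 (adjusted p = 1.71e-08) and Mad2l1 by 4.16 ± 0.47 (adjusted p = 1.59e-06), and under DOX they rose by 1.59 ± 0.08 and 4.97 ± 0.48. The kinetochore scaffold gene Mis12 rose by 0.71 ± 0.10 under PBS. The Cdk1 phosphatase gene Cdc25b fell by 2.71 ± 0.22 under DOX, and its log2 change under PBS was -1.37.

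Of 30 replication licensing and S phase genes, 4 higher and 3 lower were called with E2 under PBS and 18 higher and 1 lower under DOX. Beside this list and those below, 61.4% of all tested genes were called in either direction under PBS and 72.6% under DOX. Pcna, the sliding clamp of DNA polymerase, rose by 1.43 ± 0.12 and 1.69 ± 0.12 in the PBS and DOX arms (adjusted p = 1.08e-07 and 7.02e-09). Of the replicative helicase genes given here, Mcm7 went against the others in both arms. Under PBS Mcm4 rose by 0.87 ± 0.12 and Mcm5 by 0.78 ± 0.20 while Mcm7 fell by 0.86 ± 0.18. Under DOX Mcm2 rose by 1.28 ± 0.21, Mcm4 by 1.04 ± 0.12 and Mcm5 by 1.45 ± 0.20. Mcm7 fell by 0.999 ± 0.19 and was the 1 gene of this list called lower under DOX. Beside the 18 of 30 S phase genes called higher under DOX stand 2 of 34 members, a difference that was not tested. Of 23 DREAM, E2F and pocket protein genes, 10 higher (43.5%) and 4 lower (17.4%) were called under PBS and 12 higher (52.2%) and 6 lower (26.1%) under DOX. E2f4, the E2F of resting cells, rose by 1.26 ± 0.09 and 1.47 ± 0.09, its partner Tfdp1 by 1.49 ± 0.13 and 2.08 ± 0.13, and the MuvB subunit gene Lin54 by 1.31 ± 0.13 under PBS. Rbl2, the pocket protein p130, fell by 2.18 ± 0.16 under DOX, and Tfdp2, another partner of E2F proteins, fell by 3.54 ± 0.19. Under PBS the log2 changes of Rbl2 and Tfdp2 with E2 were -1.09 and -1.48. Of 13 constitutive APC/C subunit genes, 4 higher and 3 lower were called under PBS and 7 higher and 4 lower under DOX, among them Cdc27 with a rise of 0.80 ± 0.09 under PBS.

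For DOX against PBS under E2 the same lists were counted beside the 1 member called. Of all tested genes 20.4% were called higher and 20.6% lower. The other mitosis genes gave 13 higher and 4 lower of 71, S phase genes 5 higher and 0 lower of 30, DREAM and E2F genes 4 higher and 2 lower of 23, and APC/C subunit genes 6 higher and 3 lower of 13. Psrc1, a spindle protein gene, was higher by 1.91 ± 0.39 (adjusted p = 0.00136), and Gtse1, which acts on p53 and the spindle in G2, by 1.55 ± 0.34 (adjusted p = 0.00215). Wee1, the kinase that inhibits Cdk1, was lower, with a log2 change of -1.32 ± 0.19 (adjusted p = 0.000109), and Cdc25b, whose product opposes it, was lower as well, with -1.42 ± 0.22 (adjusted p = 0.000174). Rrm2, the small subunit of ribonucleotide reductase, was higher by 1.40 ± 0.30 and thymidine kinase Tk1 by 1.13 ± 0.40. With P4 against OIL the other mitosis genes gave 3 higher and 6 lower under PBS and 4 higher and 5 lower under DOX. The shares of all tested genes called in either direction were 31.8% and 29.8%.

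The genes outside the set whose level followed it most closely were named by the Pearson correlation of their log2 CPM with the mean of the members over the 18 libraries, given as a description of libraries that share depth and tissue mix. They were Kif15 (0.96), Casc5 (0.95), Racgap1 (0.95), Cdca3 (0.93), Brip1 (0.93), Ckap2l (0.92), Pif1 (0.92), Nek2 (0.92), Dlgap5 (0.91) and Esco2 (0.91). Of these 10, 6 are in the list of other mitosis genes. Kif15 is a spindle kinesin, Casc5 a kinetochore scaffold, Racgap1 the partner of Kif23 at the midzone and Nek2 a centrosomal kinase. On the same measure Foxm1 (-0.21), Tpx2 (0.11) and Birc5 (0.22) did not follow the mean of the other members closely. The remaining members had an r of 0.60 (Cdc20) to 0.97 (Kif11). For deviations from the group means, a different measure, a member followed the mean of the others with a median r of 0.89.

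The response to E2 was also counted by promoter element. Of the 21 members with a CHR in the window 9 fell with E2 under PBS, of the 6 without one 3 fell, and of the 7 with no window 2 fell, beside 31.9% of all tested genes. Under DOX the numbers were 3, 2 and 0, beside 37.5% of all tested genes, and the genes that rose, Foxm1 and Tpx2, have no window. Cenpe and Nusap1, without a CHR in the window, and Cenpa, Cenpf and Ndc80, with one, fell in both arms. These counts are a description of few genes.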

How the data were processed

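Per the labels, RNA came from whole uterus homogenate by a Trizol protocol, and the library kit was TruSeq for total RNA. The authors deposited raw counts, in 1 table of 22238 symbols by 18 libraries. The submitters' processing notes name build GRCm38, R 3.4.4, DESeq2 1.18.1, StringTie 1.3.4d, SAMtools 1.6, HISAT2 2.1.0, FastQC 0.11.5 and Trimmomatic 0.36. The tool behind the counts, its annotation, its strand setting and its treatment of reads with several matches are not stated. Every value is a whole number of 0 or more. The chi-square per degree of freedom between libraries of a group was 15.7 to 69.4.

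Libraries were grouped by their DOX and hormone labels. With edgeR 4.0.16 (R 4.3.3), filterByExpr kept 15494 genes, TMM (trimmed mean of M values) factors scaled the libraries, and a robust quasi-likelihood model took in the 6 groups, leaving 12 residual degrees of freedom. The 9 comparisons were contrasts of it, with Benjamini-Hochberg adjustment over all tested genes in each. A log2 fold change over the square root of its F value gave the SE. CPM use TMM library sizes. Alternatives were size factors of DESeq2, DESeq2 1.42.0 itself, limma 3.58.1 voom with quality weights, dropping the filter, a stricter filter (1 CPM in at least 3 libraries), fitting the compared groups alone, a replicate block and each library left out. Library totals without scaling, and omission of PBS OIL replicate 1 with DOX OIL replicate 3, were added after seeing the data. The pipeline was tested on simulated data.

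The members, roles, lists and tests were chosen with earlier results of these data known. Values in every library are given for the member with the highest mean log2 CPM of each role and for the 6 with the smallest p in the comparisons of DOX or the interaction of E2 and DOX. Group means are given for the second highest of each role. Lists are named by up to 4 genes with the smallest p. Cenpa, Ndc80, Nusap1 and Foxm1 are given in full because they were called in both arms, and Bub1b, Ccnb2, Ect2 and Kif2c because they were called with E2, all chosen after their values were seen. Promoters come from RefSeq on GRCm38.p6 and positions from GENCODE M21.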

Additional observations from a re-analysis of the deposited data

Results flagged for a closer look

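None of the 34 genes passed the test of whether E2 acted differently in the PBS and DOX arms, and 16 of 137 genes of the lists around them did (11.7%), a share below the 22.9% of all tested genes called in this test. Values are the interaction on the log2 scale ± SE from edgeR, a positive one meaning a higher E2 effect under DOX.

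Among other mitosis genes 6 terms were positive and 2 negative. Gtse1, a G2 protein that binds p53 and microtubules, had E2 effects of -0.62 under PBS and 1.13 under DOX, an interaction of 1.75 ± 0.47 (adjusted p = 0.0167). Fam64a had -0.55 under PBS and 1.71 under DOX, an interaction of 2.26 ± 0.65 (adjusted p = 0.0207). Depdc1b gave 1.89 ± 0.55 (adjusted p = 0.0225), Mastl, the kinase that restrains the phosphatase opposing Cdk1, 1.04 ± 0.34 (adjusted p = 0.0363), the spindle gene Tacc3 0.74 ± 0.22 (adjusted p = 0.0241) and Bub3 0.39 ± 0.12 (adjusted p = 0.0235). Wee1 had E2 effects of 0.31 under PBS and -1.20 under DOX, an interaction of -1.51 ± 0.27 (adjusted p = 0.00152), and Cdc25b gave -1.34 ± 0.30 (adjusted p = 0.00604).

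Among S phase genes Rrm2 gave 1.27 ± 0.43 (adjusted p = 0.0442). Of the DREAM and E2F genes, Tfdp2 gave -2.07 ± 0.25 (adjusted p = 0.000128), Rbl2 -1.09 ± 0.22 (adjusted p = 0.00368), Tfdp1 0.58 ± 0.18 (adjusted p = 0.0312) and E2f6 0.45 ± 0.15 (adjusted p = 0.0455). Of the APC/C subunit genes, Anapc4 gave 0.30 ± 0.08 (adjusted p = 0.0163), Cdc16 0.39 ± 0.12 (adjusted p = 0.0311) and Anapc5 -0.37 ± 0.12 (adjusted p = 0.0393).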

How the results depend on the processing

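Numbers of members called moved with the processing. For E2 under PBS, with 14 lower and 1 higher, library totals in place of TMM gave 23 lower, omitting PBS OIL replicate 1 and DOX OIL replicate 3 gave 9 lower and 2 higher, and the fit of only the groups compared gave 10 lower and 2 higher. Leaving out 1 library gave 7 to 25 lower. For E2 under DOX, with 5 lower and 2 higher, only the groups compared gave 2 lower, library totals gave 1 higher, and leaving out 1 library gave 2 to 7 lower and 1 to 3 higher. For DOX under E2, with 1 higher, DESeq2 gave 2, voom 4, only the groups compared 0, library totals 0, and leaving out 1 library 0 to 4. For the interaction of E2 and DOX, with 0 higher, DESeq2 gave 1 and leaving out 1 library 0 to 2 (2 without DOX OIL replicate 1 or DOX E2 replicate 2). The cause was not tested. Leaving out a library leaves 2 in its group. Library totals moved the median log2 change of all tested genes from -0.09 to -0.28 for E2 under PBS, from -0.08 to -0.39 under DOX and from 0.02 to -0.10 for DOX under E2, and the members' medians to -1.08, -0.59 and 0.24. No direction of a called member reversed in any alternative run.

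The labels do not say whether same-numbered libraries share more than a number. Their deviations from the group means correlated with a median of -0.016 (45 pairs, lowest -0.303), against 0.0014 for different numbers, and 7 of 18 libraries correlated best with their own number. With the replicate block the members called were 14 lower and 1 higher for E2 under PBS, 5 and 2 under DOX, 1 higher for DOX under E2 and 0 in the 6 other comparisons. Counts as low as 3 limit the precision of Cdc25c, which the stricter filter removes.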

Other observations

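Mad2l1, the checkpoint protein that captures Cdc20, had the largest log2 change with E2 of the 71 other mitosis genes in both arms. It averaged 10.97 ± 1.51 CPM (SD, n = 3) in PBS OIL, 9.98 ± 1.41 in DOX OIL, 7.18 ± 0.612 in PBS P4 and 8.92 ± 3.63 in DOX P4, and 196 ± 163 in PBS E2 and 313 ± 20.97 in DOX E2. Top2a, the enzyme that doxorubicin poisons and a gene of late S phase and G2, averaged 19.2 ± 5.11 CPM in PBS OIL, 18.01 ± 5.76 in DOX OIL, 18.6 ± 7.52 in PBS E2 and 32.7 ± 17.1 in DOX E2, and it was not called for DOX under E2 (0.82 ± 0.37, adjusted p = 0.0858). Both genes were named here after their values were seen.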
